A study of Mus musculus with 4 samples.

Results

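Somatostatin-secreting delta cells were described across 4 single-cell RNA libraries of mouse pancreatic islets. A cell was taken as a delta cell where it had at least 500 detected genes, at most 20% of its unique molecular identifiers (UMIs) in mitochondrially encoded genes, at least 5% of its UMIs in Sst, and less than 3% in each of Ins1 plus Ins2, Gcg and Ppy. The rule kept 3091 delta cells among the 43205 cells that passed its gene and mitochondrial limits, out of 45709 barcodes. Sst, the 2 insulin genes, Gcg and Ppy chose the cells, so their levels are given as a description and support nothing.

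Each library came from islets of male mice aged 8 weeks, and each is the only library of its group. The first pair carried loxP-flanked alleles of Tet2 and Tet3 on both chromosomes (flox/flox for each gene). The Cre-negative library lacked the Pdx1-driven Cre recombinase and the Cre-positive library had it, so the Cre-negative cells share the floxed alleles but not Cre. The second pair came from offspring of a control model and of an intrauterine hyperglycaemia (IHG) model, per the labels. The sources used here do not give how the hyperglycaemia was produced or how many mice gave each library. Pdx1-Cre recombines in the embryonic pancreatic epithelium, from which all endocrine cell types descend, so it does not single out delta cells. The design text places the study in the question of how glucose tolerance and insulin secretion become impaired in offspring. With 1 library a group there is no replicate, no test and no p-value. Every interval is a 95% interval for UMI or cell counting error only, and a difference between groups cannot be told apart from a difference between mice, preparations or libraries.

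Delta cells are the islet cells that make somatostatin, a peptide that acts on neighbouring beta and alpha cells through inhibitory receptors and restrains the release of insulin and glucagon. They respond to glucose, to the beta cell peptide urocortin 3, to ghrelin and to neural transmitters, and their electrical activity opens calcium channels that drive release. The homeodomain factor Hhex is known as a factor that delta cells need to keep their identity. Transcription of Sst is known to respond to cyclic AMP through a response element just before its start site, bound by CREB. The TET enzymes Tet1, Tet2 and Tet3 oxidise methylated cytosine in DNA, the first step of active demethylation.

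The promoters below belong to Sst and to 3 genes from the groups that differed between libraries: a heat shock gene and 2 interferon-induced genes. They are RefSeq sequence on GRCm38.p6, written 5′ to 3′ on the gene's own strand. Capitals mark the motif found: the cyclic AMP response element TGACGTCA, the heat shock element GAANNTTCNNGAA on either strand (in Hspe1 2 matches on opposite strands overlap), or the interferon-stimulated response element GAAANNGAAA, which reads TTTCNNTTTC on the opposite strand.
Sst, chr16:23890874-23890903, minus strand, 59 to 30 bases before the start: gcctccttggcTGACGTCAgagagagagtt
Hspe1, chr1:55088053-55088082, plus strand, 95 to 66 bases before the start: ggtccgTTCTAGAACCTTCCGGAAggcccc
Ifit1, chr19:34640769-34640838, plus strand, 120 to 51 bases before the start: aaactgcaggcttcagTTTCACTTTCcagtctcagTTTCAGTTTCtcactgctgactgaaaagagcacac
Ifit3, chr19:34583359-34583428, plus strand, 170 to 101 bases before the start: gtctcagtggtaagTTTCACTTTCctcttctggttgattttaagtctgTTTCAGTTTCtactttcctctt
Both interferon-induced promoters hold the capitalised element 2 times in these windows. Both strands of the 250 bases before the start were searched for 27025 genes. TGACGTCA was found in 478 genes (1.77%), among them Pcsk1, Chgb, Scg2 and Cartpt, which are 4 of the 29 granule and prohormone processing genes with a promoter in the table. GAANNTTCNNGAA was found in 139 genes (0.514%), and in 2 of 9 heat shock genes, Hspe1 and Hspd1. GAAANNGAAA was found in 936 genes (3.46%), and in 15 of 30 interferon and antigen presentation genes. A match describes the letters only.

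The Cre-negative library held 561 delta cells and the Cre-positive one 650, and there were 614 in the control and 1266 in the IHG offspring; values listed without names follow this order. Their median depth was 5651, 4298, 2799.5 and 4636 UMIs, so the control offspring delta cells were the shallowest. They gave 2648327, 2540286, 1518072 and 4491075 UMIs outside the 5 hormone genes, and these sums are the base of every level below, given in CPM (UMIs per 1000000 of these UMIs). Of the 45709 barcodes, 882 barcode sequences were shared between pairs of libraries, 6 of them between delta cells. The ceilings on the other hormones limit doublets with other endocrine cells but not with non-endocrine cells. A doublet caller and a filter on markers of other cell types were run as alternatives. In bulk sums of this kind, fewer cells carrying a transcript and less transcript per cell give the same value, so the share of cells is given where it matters.

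Delta cells made up 9.46% of the kept cells in the Cre-negative library (exact binomial interval 8.73 to 10.2), 6.78% in the Cre-positive library (6.28 to 7.3), 3.9% in the control offspring library (3.6 to 4.21) and 10.6% in the IHG offspring library (10.1 to 11.2). Among cells with a single dominant islet hormone, chosen by the mirrored rule for each of 4 hormones, the delta shares were 13.0%, 12.2%, 4.69% and 12.9%. The control offspring library stood apart on both denominators. It was the shallowest, and 502 of its 1251 cells with at least 5% Sst were left out for insulin at or above 3%, against 112 of 680, 192 of 1220 and 188 of 1530 cells in the other 3 in order. The part of depth and of the insulin ceiling in the low share was not tested.

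Sst filled a median of 24.1% of a delta cell's UMIs in the Cre-negative library, 16.5% in the Cre-positive, 18.4% in the control offspring and 27.0% in the IHG offspring library. The highest single cell in each reached 46.4%, 53.6%, 51.4% and 57.3%. Few cells lay at the threshold: 13, 24, 6 and 2 cells had 5 to 6% Sst, and 12, 14, 8 and 0 cells had 4 to 5% with the other limits met. Cells with at least 10 UMIs of endothelial marker genes were taken with less than 3% of UMIs in each of Sst, insulin, Gcg and Ppy. These were 200, 1703, 1037 and 751 cells with a median of 2272, 2069, 2476 and 2195 UMIs. Sst, which they should lack, was 0.0581%, 0.0737%, 0.0395% and 0.0427% of their UMIs. Their own 3% limit kept this value under 5% in advance.

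**Figure D1:**
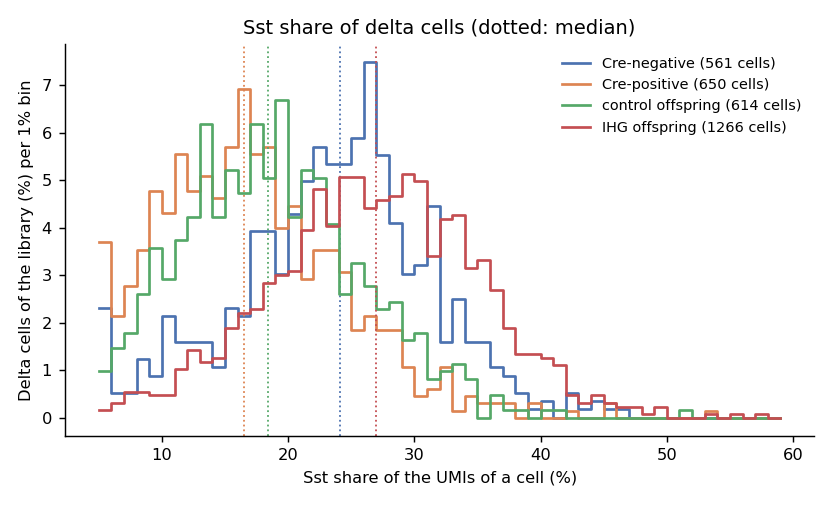
Histogram of the share of a cell's UMIs in Sst (x axis, percent) against the share of the delta cells of each library (y axis, percent); the dotted lines are the library medians. The medians of the floxed pair are 24.1% without Cre and 16.5% with it, those of the offspring pair 18.4% (control) and 27.0% (IHG), and few cells lie near the 5% limit.

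Insulin and Gcg transcripts in delta cells lay near their level in the endothelial-marked cells, while Ppy lay well above it. The endothelial-marked cells were themselves limited to less than 3% of each hormone. Insulin transcripts were 0.282%, 0.275%, 0.696% and 0.254% of delta cell UMIs, against 0.31%, 0.323%, 0.681% and 0.323% in endothelial-marked cells of the same libraries. Gcg was also close to its endothelial level, at 0.0434%, 0.183%, 0.0527% and 0.066% against 0.0377%, 0.195%, 0.0462% and 0.0945%. Ppy, the polypeptide hormone, was different: it was 0.0763%, 0.597%, 0.441% and 0.468% of delta cell UMIs and 0.00339%, 0.0315%, 0.00535% and 0.0106% of endothelial-marked cell UMIs. Cells with 1 to 3% Ppy were 5 of the Cre-negative delta cells (0.891%), and 105 (16.2%), 67 (10.9%) and 172 (13.6%) in the other 3 libraries in the order above. The Cre-negative library thus had the smallest share of delta cells with some Ppy, a gene of the rule. Peptide YY (Pyy), a hormone that the rule did not use, was present in all but 1, 0, 0 and 1 cells, at a median of 1.91%, 1.77%, 1.83% and 2.68% of UMIs.

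Known delta cell genes outside the rule were present. The marker list without Sst, 9 genes that include Hhex, Rbp4, Ghsr, Ptprz1, Dpp6, Casr, Ppp1r17 and Lepr, summed to 3117, 4118, 3680.3 and 4819.8 CPM, and only 13, 2, 4 and 3 cells had none of the 9. Hhex was at 474, 699.9, 632 and 556 CPM in the 4 libraries, against at most 6.02 in insulin cells, 37.8 in glucagon cells and 6.55 in polypeptide cells. A Hhex UMI was seen in 73.4%, 78.9%, 65.6% and 72.1% of delta cells. In cells thinned to 2000 UMIs it was seen in 50%, 60.6%, 56.5% and 50.8% of delta cells and in 0.1%, 0.7%, 0.7% and 0.3% of insulin cells. The potassium channel subunit Dpp6 was at 349, 182, 240.4 and 251 CPM, and the phosphatase Ptprz1 at 102, 95.3, 106 and 102. The ghrelin receptor Ghsr was at 40.4, 47.6, 52.7 and 40.7. Ptprz1 and Ghsr varied little between libraries, while Dpp6 was highest in the Cre-negative one. The calcium-sensing receptor Casr was at 32.9, 31.1, 36.2 and 25.6 CPM. The leptin receptor Lepr had no UMI in any delta cell.

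Ppp1r17, a protein phosphatase inhibitor that was among the markers given for the cells, was nearly absent from 1 library. It had 1 UMI in the Cre-negative delta cells (0.378 CPM), and 217, 140 and 855 UMIs (85.4, 92.2 and 190.4 CPM) in the Cre-positive, control and IHG offspring delta cells. These came from 1 cell, 87 cells (13.4%), 105 cells (17.1%) and 383 cells (30.3%). After thinning to 2000 UMIs a Ppp1r17 UMI was in 0 of 526 Cre-negative cells, for which the exact upper bound is 0.699%, and in 8.72%, 13.4% and 19.9% of the others. The order of libraries was the same at even depth.

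Endothelial and pericyte markers lay mostly in few delta cells, while ductal markers were spread over many. Endothelial markers (10 genes) summed to 180.5, 237, 595 and 246 CPM, with 69.9 to 88.5% of these UMIs in the 10 cells richest in them. Pericyte markers summed to 51.4, 11, 217 and 115, and macrophage markers to 15.1, 55.5, 36.9 and 84.8, with 5, 0, 1 and 0 of the 10 macrophage markers at 0. Ductal markers summed to 498, 1584, 907 and 756 CPM, and moved with the Cre comparison. At least 2 ductal marker UMIs were seen in 315, 535, 311 and 780 delta cells. Keratin genes carried most of that: Krt8 was at 99.3, 762, 449.9 and 263, while the ductal keratin Krt19 had no UMI in any library. The part of these cells' RNA in the results below was not tested, except where a value without them is given.

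Against the other 3 hormone classes of the same library, 263 of 9147 genes were higher in delta cells by 1.5-fold or more in 4 of 4 libraries, and 53 were lower by as much. Since the classes were cut from the hormone content of the same cells, these genes describe the delta cells and no test was made. A class with no UMI of a gene was set to a floor of 3 UMIs, so ratios that rest on it are bounds. The 15 genes with the highest smallest ratio included 3 whose products act at the membrane in excitation: Dpp6 (15.4- to 141-fold), the T-type calcium channel Cacna1h (9.42- to 132-fold) and the calcium channel subunit Cacna2d2 (7.22- to 199-fold). The transcription factors Hhex (at least 18.5-fold) and Mef2c (7.69- to 265-fold) were among them, as was the secreted factor Bmp3 (8.93- to 141-fold). Cacna1h was at 58.1, 90.1, 67.8 and 79.7 CPM and was lowest in the Cre-negative library. Mef2c was at 284, 111, 207 and 211, and Bmp3 at 55.1, 85.4, 121 and 154. Mef2c was thus lowest in the Cre-positive cells and Bmp3 lowest in the Cre-negative cells. Adhesion genes were present too, Dscam at 91.0, 84.2, 72.5 and 71.7 CPM and the surface glycoprotein gene Cd24a at 890, 640.5, 810.2 and 709. The set was completed by Ptprz1, Spock3, Shisal2b, Slc16a7, Rasgef1a, the coagulation factor gene F5 at 163, 70.9, 89.6 and 107, and the elastase gene Cela1 at 240.2, 388, 103 and 215. Cela1 is otherwise known from acinar cells, whose markers summed to 244, 390.1, 105 and 219 CPM in delta cells with Cela1 alone reaching 20 CPM.

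**Figure D2:**
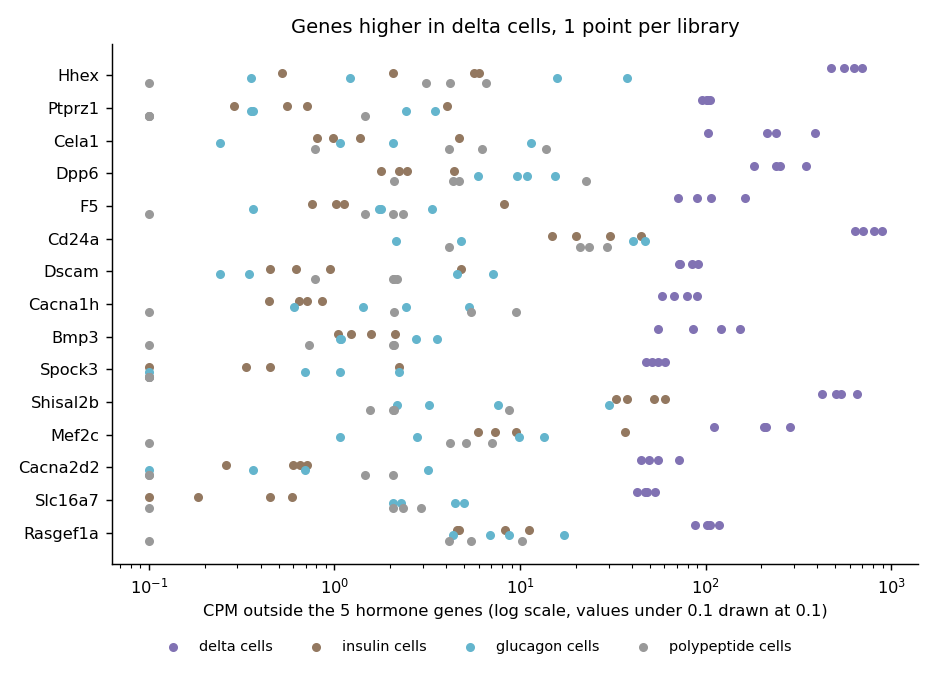
CPM outside the 5 hormone genes (x axis, log scale) of the 15 genes with the highest smallest ratio of delta cells to the other 3 classes, with 1 point per library and class; values under 0.1 are drawn at 0.1. In each of the 4 libraries the delta cell points lie to the right of the insulin, glucagon and polypeptide cell points, for Hhex at 474 to 699.9 against at most 37.8.

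Among the genes lower in delta cells than in all 3 other classes, 2 named after their values were seen act in beta cell function. The fatty acid receptor Ffar1 was at 3.4, 3.94, 14.5 and 3.79 CPM in delta cells and at 110.5 to 310.1 in insulin cells, 20.9- to 81.9-fold lower. Dopa decarboxylase (Ddc), which makes dopamine and serotonin, was at 13.2, 7.87, 27.0 and 13.6 against 287 to 749.7, 21.7- to 53.1-fold lower. In both cases the control offspring delta cells, which had the most insulin background, had the highest level.

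Transcription factors of the endocrine lineage separated delta cells less sharply than Hhex. Of the 42 factors listed, the pan-endocrine factor Isl1 was at 602, 722, 844 and 673 CPM, 1.55- to 2.35-fold above insulin cells and 0.892 to 1.81 times the glucagon cell level. Meis2 was at 464, 491, 649.5 and 536 and was 1.34- to 3.09-fold above all 3 classes. Neurog3, the factor that starts endocrine differentiation, was at 64.6, 65.3, 146 and 209 CPM, 6.21- to 89.2-fold above the other classes. Its level was higher in both offspring libraries than in both floxed libraries. Pdx1, a beta and delta cell factor, was at 77.4, 107, 100.1 and 96.4 CPM. That is 0.582 to 0.657 times the insulin cell level and above the 8.06 to 36.1 of glucagon cells. The factors Insm1 (386, 447, 529.6 and 525), Pax6 (404, 374, 397 and 371), Neurod1 (325, 295, 383 and 279), Etv1 (378, 322, 433 and 439), Prox1 (228, 239, 269 and 254) and St18 (255, 246, 334 and 283) varied by less than 1.5-fold across the 4 libraries. So did Rfx6 (126, 120.1, 141 and 114), Rfx3, Foxa2, Myt1, Hnf4a, Tshz1, Zfp91, Mlxipl, and Creb1, Atf1 and Crtc2, which act at cyclic AMP response elements. Foxa1, Mnx1, Onecut2, Pou3f4, Nkx6-3 and Lmx1a stayed under 20 CPM in all 4 libraries.

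Receptors were read for ligands that act on delta cells. The long-chain fatty acid receptor Ffar4 was at 127, 158, 124 and 142 CPM, 4.88- to 44.4-fold above insulin cells. The GLP-1 receptor Glp1r was at 189, 108, 119 and 86.8 CPM, 0.111 to 0.285 times the insulin cell level and above the 3.33 to 48.1 of glucagon cells. Delta cells thus lay between beta and alpha cells for this receptor in all 4 libraries. The urocortin receptor Crhr2 was at 4.91, 29.1, 25 and 31.0, low in the Cre-negative library alone. The incretin receptor Gipr was at 61.5, 60.2, 70.5 and 59.9, and the adrenergic receptor Adra2a at 56.3, 73.2, 61.3 and 43.2. The somatostatin receptor Sstr3 was at 94.0, 56.7, 68.5 and 80.2, and Sstr1 at 7.93, 18.5, 20.4 and 18.7. The insulin-like growth factor receptor Igf1r was at 202, 135, 130.4 and 138, the growth hormone receptor Ghr at 166, 126, 113 and 124, the GABA-B receptor Gabbr1 at 142, 123, 125 and 143, and the insulin receptor Insr at 37.8, 30.3, 34.9 and 33.0. Of the 61 receptors and ligands listed, 24 reached 20 CPM in at least 1 library, and Sstr2, Sstr5, Chrm3, Chrm4, Drd2 and Crhr1 were among those that did not. Iapp, a peptide co-released with insulin, was at 9554, 10827, 13103 and 16573 CPM, 0.151 to 0.228 times the insulin cell level and 6.1- to 14.4-fold above glucagon cells.

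The libraries differed most in immediate early and heat shock genes, which cells induce within minutes of disturbance, dissociation included. These 38 genes filled a median of 2.86% of a delta cell's UMIs outside the 5 hormone genes in the Cre-negative library and 10.9%, 9.97% and 2.14% in the other 3. Cells at 5% or more were 44 (7.84%, exact binomial interval 5.76 to 10.4), 622 (95.7%, 93.8 to 97.1), 557 (90.7%, 88.1 to 92.9) and 419 (33.1%, 30.5 to 35.8). The 5% limit was set after the values were seen, and 102, 27, 54 and 58 cells had 4 to 6%. The IHG offspring delta cells were the most spread, with 0.799% at the 10th percentile and 10.9% at the 90th, and 587 of them (46.4%) lay under 2%. The share at 5% or more was lower in insulin cells of every library, at 0.0314%, 21.3%, 10.6% and 10.4%. Glucagon cells had 11.5%, 67.0%, 93.6% and 30.8%, which follows the order of libraries in delta cells except that the control offspring share was the highest.

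**Figure D3:**
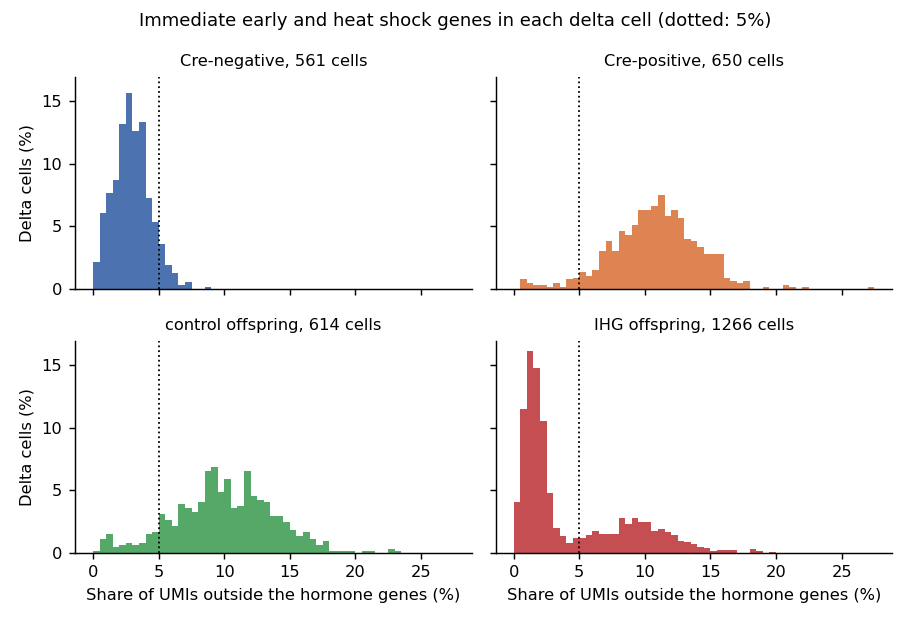
Share of each delta cell's UMIs outside the 5 hormone genes that lie in 38 immediate early and heat shock genes (x axis, percent) against the share of the library's delta cells (y axis, percent), 1 panel per library; the dotted line is 5%. Cells at 5% or more are 7.84% without and 95.7% with Cre, and 90.7% in the control and 33.1% in the IHG offspring.

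Within each library, delta cells with more Sst had a smaller share of these genes. In cells with 5 to 15%, 15 to 25% and over 25% Sst the median share was 11.8%, 10.7% and 8.14% among Cre-positive cells, 12%, 9.81% and 7.64% among control offspring cells and 7.96%, 4.98% and 1.76% among IHG offspring cells. In the Cre-negative library it was 2.99%, 3.06% and 2.74%, nearly level. Across cells, Spearman's rho of Sst share with this share was -0.13, -0.36, -0.44 and -0.40 over the 561, 650, 614 and 1266 cells. With the share of ribosomal protein genes it was 0.32, 0.34, 0.36 and 0.37, and with the Pyy share 0.05, 0.38, 0.30 and 0.32. These are descriptions: the cells of 1 library are not replicates, and shares of the same UMI total are tied to each other.

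The Cre comparison asks how islet cells differ where Tet2 and Tet3 are deleted. Tet2 was at 65.7, 50.4, 77.1 and 65.2 CPM, from 174, 128, 117 and 293 UMIs. It was 1.3-fold lower in Cre-positive than Cre-negative delta cells (interval 1.03 to 1.65). Tet3 was at 61.2, 48.4, 68.5 and 47.4, and 1.26-fold lower in the Cre-positive cells (0.993 to 1.61). Tet1, which was not targeted, was at 35.9, 18.5, 32.3 and 26.1 and was 1.94-fold lower (1.35 to 2.81). A 3′ tag can lie outside the floxed exons, so these counts do not check the deletion.

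Of 7907 genes with at least 20 CPM in at least 1 of the 2 libraries, 652 (8.25%) were higher in Cre-positive delta cells by 1.5-fold or more, and 1567 (19.8%) were lower by as much. The split depends on the scaling: 29.4% of the genes past the fold were higher here, 43.1% without hormone, mitochondrial, immediate early and heat shock genes in the total, and 61.5% after median-of-ratios scaling, which moved the median over all genes from -0.23 to 0.02. Of 19 measured genes of the TET and DNA methylation list, 1 was at least 1.5-fold higher and 5 were lower, with a median log2 ratio of -0.32 beside -0.23 over all genes. Ogt, the enzyme that adds O-GlcNAc and a known TET partner, was among the lower genes at 73.6, 37.0, 35.6 and 36.7 CPM. The Cre-negative library was the only high one of the 4.

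The co-chaperone Bag3 was at 38.9, 1683, 1351 and 541 CPM, 43.3-fold higher in Cre-positive than Cre-negative delta cells (35.6 to 53.1). The heat shock protein Hsph1 was at 128, 1949, 1877 and 643, 15.3-fold higher (13.7 to 17.1), and the collagen chaperone Serpinh1 at 37.0, 565, 279 and 179, 15.3-fold higher (12.4 to 18.9). For all 3 genes the Cre-negative library was the low one. Dusp8, a MAP kinase phosphatase, was at 24.5, 297, 204 and 126 and was 12.1-fold higher (9.39 to 15.9). The repressor Tgif1 was at 3.78, 85.4, 56.0 and 20.7 and was 22.6-fold higher (12.1 to 47.8). Gpa33, a cell surface glycoprotein, was at 1.89, 41.3, 30.3 and 37.0 and was 21.9-fold higher (9.09 to 68.8). Ppp1r17 was 226-fold higher against the single Cre-negative UMI (40.2 to 8976). In each of these genes the control offspring library, whose labels name neither floxed alleles nor Cre, lay nearer the Cre-positive than the Cre-negative level on a log scale.

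Of 36 measured immediate early and heat shock genes, 30 were at least 1.5-fold higher in Cre-positive delta cells and 1 was lower, Dusp1, with a list median log2 ratio of 1.74. The mitochondrial chaperonin Hspe1, whose promoter is printed above, was at 274, 1079.8, 666 and 453 CPM. The list median was 1.19 in insulin cells (24 of 33 higher) and 0.76 in glucagon cells (19 of 35 higher, 10 lower). Among all genes of delta cells 8.25% were higher and 19.8% lower (median -0.23), with medians of -0.16 in insulin and -0.12 in glucagon cells.

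Interferon-induced genes were higher in the Cre-positive library than in the other 3. The antiviral gene Oasl2 was at 0, 26.4, 1.98 and 1.78 CPM, at least 23.3-fold higher in Cre-positive than Cre-negative delta cells against a floor of 3 UMIs over the library. Ifit1, which binds foreign RNA, was at 10.6, 74.0, 14.5 and 8.68 and was 7-fold higher (4.69 to 10.8). The interferon regulatory factor Irf7 was at 5.66, 30.7, 5.93 and 8.02 and was 5.42-fold higher (3.09 to 10.1). Ifit3 was at 11.3, 56.7, 9.22 and 9.35 and was 5-fold higher (3.36 to 7.68). Unlike the stress genes, these were low in both offspring libraries too. Of 23 measured genes of the interferon and antigen presentation list, 16 were at least 1.5-fold higher and 0 lower, with a median log2 ratio of 1.34. The medians in insulin cells (1.38, 14 of 19 higher) and glucagon cells (1.28, 17 of 20 higher) were close to it. Over all genes of delta cells 8.25% were higher and 19.8% lower (median -0.23), with medians of -0.16 in insulin and -0.12 in glucagon cells.

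The MHC class II genes H2-Ab1, H2-Eb1 and H2-Aa, carried by antigen-presenting cells, were also among the highest ratios. H2-Ab1 was at 2.64, 63.8, 9.88 and 52.1 CPM, 24.1-fold higher in the Cre-positive cells (11.4 to 61). Its 162 Cre-positive UMIs lay in 42 cells, and 1 cell held 68 of them. Macrophage markers summed to 55.5 CPM there against 15.1 in the Cre-negative delta cells. Without cells that held 2 or more marker UMIs of other cell types (the marker filter), the log2 ratios of H2-Ab1, H2-Eb1 and H2-Aa were 2.93, 1.71 and 0.38 in place of 4.59, 4.88 and 4.38. The filter also counts ductal keratins, which many delta cells carry. It left 251 of 561 Cre-negative and 105 of 650 Cre-positive cells, so it does not remove cells of other types alone.

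Lower in the Cre-positive delta cells were several genes that, Prss23 apart, were high in the Cre-negative library alone. Pappa2, a protease that frees insulin-like growth factor, was at 196, 15, 37.5 and 39.4 CPM, 13.1-fold lower (9.44 to 18.8). Copine Cpne7 was at 73.3, 5.12, 7.9 and 13.6 and was 14.3-fold lower (8.18 to 27.4), and Pianp at 117, 17.3, 32.9 and 31.8 was 6.78-fold lower (4.93 to 9.52). The kainate receptor subunit Grik3 was at 21.9, 0.394, 0 and 0, from 58, 1, 0 and 0 UMIs, a ratio of 55.6 (9.6 to 2235). The adhesion gene Mdga2 was at 37.4, 1.97, 1.32 and 4.45 and was 19-fold lower (7.87 to 59.8). Myof at 28.7, 3.15, 3.29 and 5.12 was 9.11-fold lower (4.4 to 21.9). The serine protease Prss23 was at 74.0, 6.3, 29.0 and 28.9 and was 11.8-fold lower (7.06 to 21.0). Both offspring levels of Prss23 lay nearer the Cre-negative than the Cre-positive level on a log scale, so the Cre-positive library stood apart as the low one.

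A small group of Cre-negative cells carried part of the difference in 4 other genes of this direction. Transthyretin (Ttr), a thyroxine carrier that is abundant in alpha cells, was at 1969.5, 213, 225 and 175 CPM, 9.25-fold lower in the Cre-positive cells (8.46 to 10.1). In the Cre-negative library 39 of 561 delta cells (6.95%) had at least 10 Ttr UMIs, against 3, 2 and 6 cells in the others, and they held 88.0% of its Ttr. These 39 cells were deeper (median 10450 UMIs against 5439.5) and had less Sst (10.2% against 24.7%). Hhex was seen in 21 of the 39 against 391 of the other 522. Without cells of 10 or more Ttr UMIs the log2 ratio of Ttr was -0.53 in place of -3.21, and that of the protease inhibitor Serpina1a was -0.56. The lipase Lpl (114, 9.05, 12.5 and 8.24 CPM) and the actin-binding gene Tmsb15b2 (113, 15.4, 20.4 and 26.1) kept log2 ratios of -2.28 and -1.35. Rgs5, a pericyte gene at 29.8, 1.97, 167 and 84.8 CPM, had 75 of its 79 Cre-negative UMIs in 1 cell.

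Granule and secretion genes lay close to the background of all genes in the Cre comparison, with some members farther from it. Chga, the granule protein chromogranin A, was at 16729.8, 7814, 9596 and 11129 CPM, 2.14-fold lower (2.11 to 2.18). The prohormone convertase Pcsk1 was at 113, 19.7, 35.6 and 36.1 and was 5.76-fold lower (4.25 to 7.93). Of 25 measured granule genes 0 were at least 1.5-fold higher and 6 lower (median -0.30), where 19.8% of all genes were lower and the median over all genes was -0.23. Of 28 exocytosis genes, 2 were higher and 9 lower (median -0.21). The vesicle calcium sensor Syt1 went the other way, at 18.1, 58.7, 149.5 and 119 CPM, 3.24-fold higher (2.32 to 4.58). Of 20 calcium store and buffer genes, 1 was higher and 5 lower (median -0.46), with the buffer protein Calb1 at 577, 219, 270.1 and 278 CPM, 2.64-fold lower (2.39 to 2.91).

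Excitability channels moved in both directions, with 6 of 28 genes higher and 7 lower (median -0.13, which became 0.10 after median-of-ratios scaling). Over all genes 8.25% were higher and 19.8% lower (median -0.23), and the counts of this paragraph are set beside that. The calcium channel subunit Cacnb3 was at 38.5, 111, 115 and 157 CPM and was 2.87-fold higher. The sodium channel Scn9a was at 40.8, 82.7, 130.4 and 112 and was 2.03-fold higher. Dpp6 was 1.92-fold lower (1.71 to 2.15), and its A-type potassium channel partner Kcnip1 was at 117, 48.4, 94.2 and 79.3 and was 2.42-fold lower. Of 22 measured receptors 1 was higher and 8 lower (median -0.36). Crhr2 was the higher one, at 5.93-fold (3.27 to 11.7), and the AMPA receptor subunit Gria2 was 2.44-fold lower (2.1 to 2.85) at 228, 93.3, 101 and 99.1 CPM. Glp1r was 1.75-fold lower (1.51 to 2.03). The other lower receptors were Gcgr (20.8, 7.09, 5.27 and 7.13), Prlr (25.7, 10.6, 29.6 and 18.0), Adora1 (34.7, 17.3, 20.4 and 17.6), Gpr39 (22.7, 13.0, 7.25 and 11.4), Ffar2 (33.6, 22.0, 66.5 and 53.9) and Sstr3. Of these, Gcgr, Gpr39 and Adora1 were high in the Cre-negative library alone.

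Of 24 neurite, adhesion and GABA genes, 3 had a higher level in Cre-positive delta cells and 7 a lower one (median -0.36). For this and the next lists, 8.25% of all genes were higher and 19.8% lower (median -0.23). The neuronal tubulin Tubb3 at 8.68, 24, 19.8 and 20.9 CPM was 2.76-fold higher. Of 22 genes of cyclic AMP signalling, 3 were higher and 6 lower (median -0.31). The phosphodiesterase Pde3a was at 49.8, 9.84, 19.1 and 20.3, 5.06-fold lower, and the cyclic AMP sensor Rapgef3 at 15.1, 36.6, 58.6 and 58.6 was 2.42-fold higher. Of 27 genes of glucose sensing and metabolism, 0 were higher and 8 lower (median -0.36), with the pyruvate dehydrogenase kinase Pdk4 at 26.8, 3.94, 3.95 and 0.445, 6.81-fold lower. Among 26 antioxidant genes, 5 were higher and 6 lower (median -0.15, or 0.08 after median-of-ratios scaling), with the metallothionein Mt2 at 16.6, 105, 94.2 and 60.1, 6.3-fold higher, and heme oxygenase Hmox1 at 7.55, 43.3, 39.5 and 28.3, 5.73-fold higher. In all 6 named genes the control offspring value lay nearer the Cre-positive than the Cre-negative one on a log scale.

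Of 34 measured transcription factors 4 were higher and 5 lower in the Cre-positive delta cells, with a median of 0.03. Over all genes 8.25% were higher and 19.8% lower (median -0.23). Nkx2-2, an endocrine factor, was at 139, 268, 210.1 and 171 CPM and was 1.93-fold higher (1.7 to 2.2). The beta cell factor Nkx6-1 was at 105, 35.0, 67.2 and 48.5 and was 2.99-fold lower (2.34 to 3.83). Hhex was 1.48-fold higher (1.37 to 1.59) and Fev, a serotonergic and endocrine factor at 193, 79.5, 144 and 188, was 2.42-fold lower (2.05 to 2.86).

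**Figure D4:**
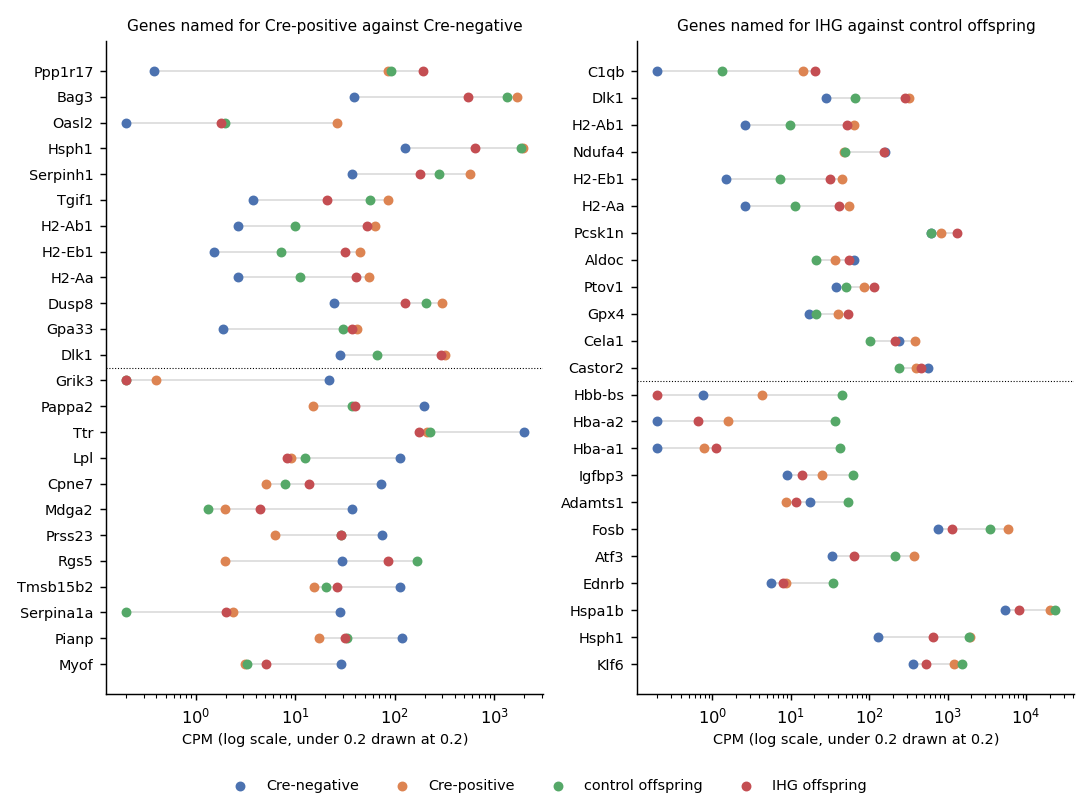
CPM outside the 5 hormone genes in delta cells (x axis, log scale; values under 0.2 drawn at 0.2) of the genes with the highest and the lowest ratios in each comparison, 1 point per library; the dotted line parts higher from lower genes. Bag3 runs from 38.9 in the Cre-negative to 1683 in the Cre-positive library with the control offspring at 1351, and Dlk1 from 66.5 in the control to 289 in the IHG offspring library.

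The comparison of offspring asks how cells differ after a hyperglycaemic pregnancy. Of 7795 genes, 528 (6.77%) were higher in IHG than in control offspring delta cells by 1.5-fold or more, and 441 (5.66%) were lower by as much. Insulin cells of the same libraries had 62 and 37 of 6937 genes past the same folds. Glucagon cells had 311 and 391 of 7380. The summed UMIs behind these counts differed between classes. In IHG and control offspring they were 4491075 and 1518072 for delta cells, and 41998987 and 59825860 for insulin cells. For glucagon cells they were 8284062 and 2896130. The part of this depth in the numbers of genes past the fold was not tested. With the hormone genes left in the total, 161 genes were higher and 711 lower in delta cells, which took the higher share of genes past the fold from 54.5% to 18.5%. Sst alone filled a median of 18.4% of a control and 27.0% of an IHG offspring delta cell.

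The genes lower in the IHG delta cells were led by the stress genes. The immediate early factor Fosb was at 748, 5801, 3466 and 1147 CPM, 3.02-fold lower in IHG than in control offspring (2.91 to 3.14). The heat shock gene Hspa1b was at 5319.6, 20262, 23063 and 8171, 2.82-fold lower (2.78 to 2.86), and the stress factor Atf3 at 34.0, 376, 212 and 63.9 was 3.32-fold lower (2.82 to 3.91). Hsph1 was 2.92-fold lower (2.77 to 3.08), and Klf6 at 362, 1219, 1519 and 525 was 2.89-fold lower (2.73 to 3.06). The Cre-negative and IHG libraries were the low pair for each of these 5 genes. Of 34 measured immediate early and heat shock genes, 0 were at least 1.5-fold higher and 30 lower, with a median log2 ratio of -1.07. The median was -0.33 in insulin cells (7 of 33 lower) and -1.31 in glucagon cells (34 of 36 lower). Over all genes of delta cells 6.77% were higher and 5.66% lower (median 0.04), with medians of 0.00 in insulin and 0.03 in glucagon cells. Among delta cells with at least 5% of their UMIs in these genes, 419 IHG and 557 control cells, the list median was -0.09, and Fosb was 1.3-fold lower (1.25 to 1.36). Among cells under 5%, with 57 control cells, Fosb was 3.99-fold lower (3.29 to 4.82) and Hsph1 5.75-fold lower (4.29 to 7.6). Both subsets were cut on these same genes, so the values describe the subsets only.

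Several of the lowest ratios rested on few control offspring cells. The globin genes Hbb-bs, Hba-a1 and Hba-a2, which mark red blood cells, had 68 of 69, 63 of 64 and 55 of 55 of their control UMIs in 1 cell. Igfbp3, which binds insulin-like growth factor, had 56 of 96 control UMIs in 1 cell and a log2 ratio of -2.17, which was -0.54 with the doublet caller's cells left out and -0.12 with a marker filter. The protease Adamts1 was at 17.7, 8.66, 53.4 and 11.8 and was 4.52-fold lower (3.16 to 6.52), and the endothelin receptor Ednrb at 5.66, 8.66, 34.9 and 8.02 was 4.36-fold lower (2.8 to 6.85). Adamts1 and Ednrb were high in the control offspring library alone, where endothelial markers were at 595 CPM against 246 in the IHG library. With the marker filter their log2 ratios were -1.65 in place of -2.18 and -1.12 in place of -2.12.

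Among the genes higher in the IHG delta cells, Pcsk1n, an inhibitor of prohormone convertase, was at 619, 815, 608 and 1323 CPM, 2.18-fold higher (2.03 to 2.33). It was 1.83-fold higher in insulin cells. Ndufa4, a subunit of the respiratory chain, was at 158, 47.6, 49.4 and 154 and was 3.11-fold higher (2.45 to 4). Among cells with at least 5% stress gene UMIs it was 1.25-fold higher (0.907 to 1.73), and among cells under 5% it was 3.65-fold higher (1.76 to 9.12). Pcsk1n kept 1.95- and 2.01-fold in the same subsets. Ptov1 was at 38.1, 87.0, 51.4 and 117 and was 2.28-fold higher (1.79 to 2.92). Gpx4, which removes lipid peroxides, was at 17.0, 40.5, 21.1 and 53.9 and was 2.56-fold higher (1.76 to 3.82). The glycolytic enzyme Aldoc was at 64.2, 37.0, 21.1 and 56.1 and was 2.66-fold higher (1.84 to 3.98). Castor2, a gene of the mTOR pathway, was at 569.8, 397, 237 and 459 and was 1.94-fold higher (1.73 to 2.17). Cela1 was 2.08-fold higher (1.75 to 2.48). Castor2, Cela1 and Aldoc were lowest in the control offspring library of the 4.

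C1qb and the 3 MHC class II genes were also among the 12 highest ratios. The complement gene C1qb was at 0, 14.2, 1.32 and 20.5 CPM, from 92 UMIs in 6 IHG cells and 2 UMIs in the control library, a ratio of 15.5 (4.18 to 130.3). H2-Ab1 was 5.27-fold higher, with 135 of its 234 IHG UMIs in 1 cell. With the marker filter H2-Ab1, H2-Eb1 and H2-Aa had log2 ratios of -0.38, 0.88 and 0.10. Among cells under 5% stress gene UMIs the log2 ratios were -0.54, -0.88 and -0.92. For the 57 control cells there they rest on the floor of 3 UMIs. They are thus bounds and give no direction.

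Nuclear genes of oxidative phosphorylation leaned higher in IHG delta cells, with 12 of 73 at least 1.5-fold higher and 0 lower. Their median log2 ratio was 0.40. Among all genes 6.77% were higher and 5.66% lower (median 0.04). Cyc1, the cytochrome c1 subunit, was at 25.7, 26.0, 19.1 and 41.4 CPM and was 2.17-fold higher. The ATP synthase subunit gene Atp5o was at 128, 62.2, 67.2 and 115 and was 1.71-fold higher. The median was 0.05 in insulin cells (0 of 73 past the fold) and 0.37 in glucagon cells (8 higher). It was 0.20 among delta cells with at least 5% stress gene UMIs and 0.29 among those under 5%. In the Cre comparison the same list had 1 of 71 higher and 17 lower (median -0.41), and 5 of 73 higher and 1 lower in insulin cells (median 0.06). Over all genes in delta cells of that comparison, 8.25% were higher and 19.8% lower (median -0.23). In control offspring against Cre-negative delta cells the list had 0 of 72 higher and 15 lower (median -0.44). There 8.93% of all genes were higher and 14.0% lower (median -0.15).

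Of 27 granule genes, 2 were higher and 4 lower in IHG delta cells (median 0.14, which became -0.02 with hormone genes in the total). Among all genes 6.77% were higher and 5.66% lower (median 0.04). Pyy was among the higher genes, at 28125, 24868, 25267 and 40203 CPM, 1.59-fold higher (1.57 to 1.61). It was 1.16-fold higher among cells with at least 5% stress gene UMIs. The zinc transporter Slc30a8 was at 43.4, 24, 52.7 and 18.3 and was 2.89-fold lower (2.09 to 3.98). Urocortin 3 (Ucn3), a beta cell peptide, was at 2.27, 9.45, 31.0 and 11.4 and was 2.73-fold lower (1.79 to 4.13). The beta cell factor Mafa was at 6.42, 12.6, 50.1 and 18.3 and was 2.74-fold lower (1.98 to 3.79), and the glucose transporter Slc2a2 at 14.3, 2.36, 36.9 and 11.8 was 3.13-fold lower. These last 4 are abundant in insulin cells, and insulin transcripts were 0.696% of UMIs in control offspring delta cells against 0.254% in IHG ones; the part of that background was not tested.

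Of 33 measured transcription factors 0 were higher and 2 lower, Mafa and Meis1 (median -0.19). For this and the next lists, 6.77% of all genes were higher and 5.66% lower (median 0.04). Hhex was 1.14-fold lower in the IHG delta cells (1.06 to 1.23). Of 28 excitability channels, 2 were higher and 0 lower (median 0.04). Receptors had 1 of 22 higher and 3 lower (median -0.10), among them ephrin B2 (Efnb2) at 6.04, 12.6, 25.7 and 8.68 CPM, 2.96-fold lower (1.85 to 4.73). Ppp1r17 was 2.06-fold higher (1.72 to 2.49). Insulin and mTOR signalling had 0 of 28 higher and 6 lower, with the insulin receptor substrate Irs2 at 84.2, 284, 339.9 and 139, 2.44-fold lower. Among 25 antioxidant genes, 5 were higher and 3 lower (median 0.22), with the mitochondrial peroxiredoxin Prdx3 at 42.7, 22.4, 16.5 and 33.8, 2.06-fold higher, and Txnip, which is induced by glucose, at 1038, 546, 844 and 479, 1.76-fold lower. Calcium genes had 2 of 19 higher (median 0.21), with S100a11 at 271, 193, 148 and 288, 1.94-fold higher. Of 27 genes of glucose sensing and metabolism, 1 was higher and 2 were lower (median 0.26), with the enolase Eno1 at 60.8, 57.5, 39.5 and 75.5, 1.91-fold higher. Cyclic AMP signalling had 0 of 23 higher and 3 lower (median -0.00), exocytosis 2 of 23 higher and 2 lower (median 0.23), and neurite genes 2 of 23 higher and 1 lower, the axon guidance receptor Robo2 at 108, 58.3, 85.0 and 40.3. Tet2 was 1.18-fold lower (0.945 to 1.47) and Tet3 1.44-fold lower (1.13 to 1.83) in the IHG than in the control offspring delta cells.

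**Figure D5:**
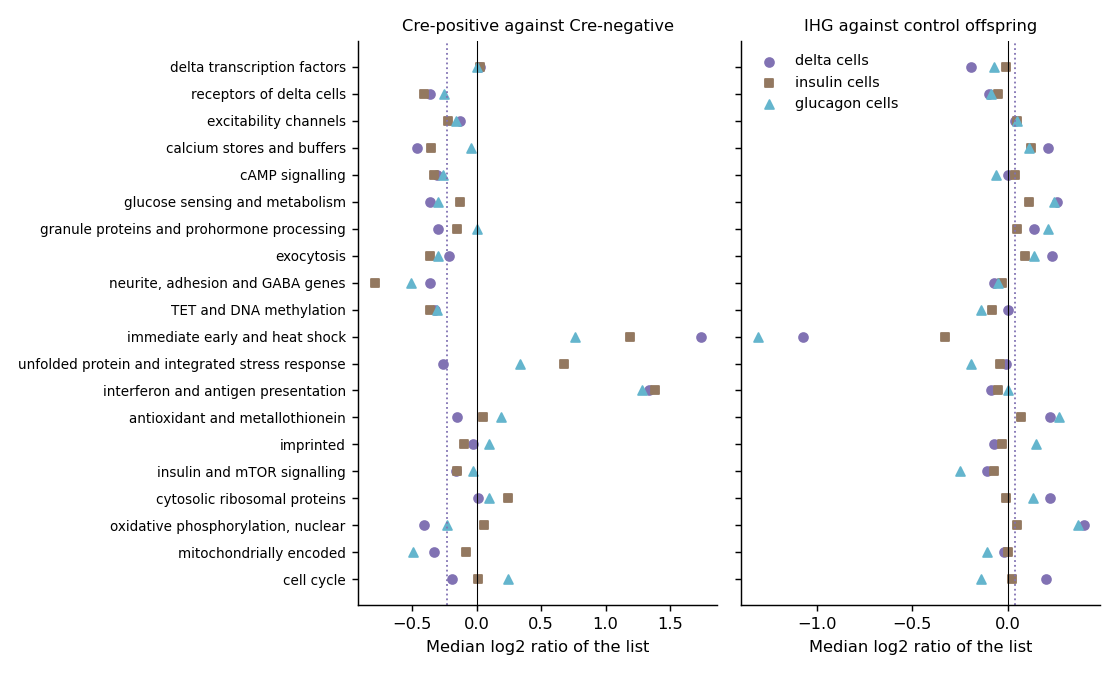
Median log2 ratio of the measured genes of each list (x axis) in delta, insulin and glucagon cells, for Cre-positive against Cre-negative and for IHG against control offspring; the dotted line is the median over all genes in delta cells. Immediate early and heat shock genes lie at 1.74 and -1.07 in delta cells, and oxidative phosphorylation genes at -0.41 and 0.40. The median over all genes in delta cells is -0.23 and 0.04.

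The floxed Cre-negative library and the control offspring library are the controls of the 2 pairs. Of 7988 genes, 713 (8.93%) were higher in control offspring than in Cre-negative delta cells by 1.5-fold or more, and 1120 (14.0%) were lower by as much. This comparison shares the Cre-negative library with the Cre comparison, so the values are only set side by side. Bag3 was 34.7-fold higher in the control offspring and 43.3-fold higher in the Cre-positive cells, each against Cre-negative cells. Ppp1r17 was 244-fold (43.1 to 9715) and 226-fold higher, and Ttr 8.74- and 9.25-fold lower. Pappa2 was 5.23-fold lower (3.97 to 7) in the control offspring and 13.1-fold lower in the Cre-positive cells, and Ndufa4 3.2- and 3.32-fold lower. Dlk1 was 2.38-fold (1.75 to 3.26) and 11.5-fold higher. Immediate early and heat shock genes had a median log2 ratio of 1.30 in the control offspring (28 of 34 higher) and 1.74 in the Cre-positive cells. For interferon genes the medians were 0.34 (4 of 17 higher) and 1.34.

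The imprinted gene Dlk1, a Notch-related membrane protein expressed from the paternal allele, was among the highest ratios of both the Cre and the offspring comparison. It was at 27.9, 321, 66.5 and 289 CPM in delta cells, 11.5-fold higher in Cre-positive than Cre-negative cells (9.05 to 14.8) and 4.35-fold higher in IHG than control offspring (3.55 to 5.38). In insulin cells it was at 255, 14.6, 2.39 and 5.55, so that the Cre-negative library was the low one in delta cells and the high one in insulin cells. A Dlk1 UMI was seen in 34 (6.06%), 147 (22.6%), 44 (7.17%) and 184 (14.5%) delta cells. Few cells held most of it: the 10% of cells richest in it had 87.9% of the UMIs in the Cre-positive and 95.5% in the IHG library, and 3, 40, 4 and 45 cells had 5 or more UMIs. Thinned to 2000 UMIs, the shares with a UMI were 3.04%, 14.9%, 4.33% and 9.25%. The log2 ratio of the Cre comparison was 3.52, and it was 3.93 with a ceiling of 1% on each other hormone and 5.28 with the marker filter. Among IHG and control cells with at least 5% stress gene UMIs the ratio was 1.83-fold (1.43 to 2.36), and among those under 5% 11.8-fold (4.61 to 43.5), the latter from 57 control cells. Of the other 25 measured imprinted genes, 5 were higher and 3 lower in the Cre comparison, Kcnq1ot1 at 40.0, 88.2, 68.5 and 39.0 CPM among the higher and Grb10 at 80.4, 40.9, 34.9 and 36.5 among the lower. Among all genes of that comparison 8.25% were higher and 19.8% lower.

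Cells with cell cycle transcripts were rare. Cells with at least 3 UMIs over 6 cell cycle genes were 0, 1, 0 and 2 in the 4 libraries. Of 75 measured cytosolic ribosomal protein genes 6 were higher and 0 lower in the Cre comparison (median 0.01), with Rpl28 at 186, 541, 392 and 442 CPM, and 2 were higher in the offspring comparison (median 0.22). Of the unfolded protein and integrated stress response genes, 4 of 29 had a higher and 6 a lower level in Cre-positive delta cells (median -0.26), and 21 of 36 higher in insulin cells (median 0.68). Among all genes in delta cells, 8.25% were higher and 19.8% lower in the Cre comparison, and 6.77% and 5.66% in the offspring comparison. Atf4, the factor at the centre of the integrated stress response, was at 159, 345, 246 and 195 CPM, and the stress-induced mTOR inhibitor Ddit4 at 222, 72.8, 117 and 69.5.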

How the data were processed

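Raw UMI counts per gene and barcode, as deposited by the authors, were used for 32285 genes in 4 libraries made with a SeekOne MM 3′ microwell kit, per the labels' protocols. The submitters' processing notes name Cell Ranger, Seurat and mm10, with no versions. The way cells were called was not given in the sources used here. Library totals were 52489846, 84146592, 109110492 and 95818236 UMIs in the order Cre-negative, Cre-positive, control offspring, IHG offspring.

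UMIs were summed over the delta cells of each library and divided by the total outside Sst, Ins1, Ins2, Gcg and Ppy. Ratios between libraries carry exact (Clopper-Pearson) 95% intervals conditional on the summed counts, which cover counting error only. A gene counts as past the fold at 1.5-fold with at least 20 CPM (UMIs per 1000000) in 1 of the compared libraries; a library at 0 was set to a floor of 3 UMIs and the ratio is then a bound. Insulin, glucagon and polypeptide cells were chosen by the same rule with the hormone exchanged. Named genes were the 12 highest and 12 lowest ratios by the interval bound nearest to 1, the 15 highest smallest ratios against the other classes, markers, factors and receptors reaching 20 CPM, and the members farthest from 1 in other lists; hormones, mitochondrial and Gm or Rik genes were left out, and some genes that the rule selects are not reported here. The members and lists were chosen with earlier results of these data known.

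On simulated counts 95.1% (Cre comparison, 7631 genes) and 95.2% (offspring comparison, 7541 genes) of intervals covered the true ratio, 99.0% of 98 and 95.8% of 96 genes changed 2-fold were recovered, and 1.24% and 1.8% of unchanged genes passed the fold. The counts were drawn independently for each gene, the model behind the interval, so the coverage was set in advance. UMIs that cluster in few cells, and differences between mice or libraries, were not simulated. The marker filter, an alternative, did not count Cela1 and Sox9, which delta cells carry. It did count the other ductal markers, keratins among them, so it removed many delta cells that carry those. Gene positions and 32158 of the 32285 identifiers were matched to GENCODE vM21, and promoters to RefSeq. Sst lies on chromosome 16 from 23889573 to 23890958 (minus strand), Hhex on chromosome 19 from 37434810 to 37440731 (plus) and Dlk1 on chromosome 12 from 109452823 to 109463336 (plus) of GRCm38. Scrublet was run in scanpy 1.11.5, intervals and sums in scipy 1.17.1, numpy 2.4.6 and pandas 2.3.3, and plots in matplotlib 3.10.9, under Python 3.11.15.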

Additional observations from a re-analysis of the deposited data

Results flagged for a closer look

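In the Cre comparison Dlk1 moved in opposite directions in 2 cell classes of the same libraries. It was 11.5-fold higher in Cre-positive than Cre-negative delta cells (27.9 and 321 CPM in Cre-negative and Cre-positive) and 17.5-fold lower in insulin cells (255 and 14.6 CPM, interval 15.8 to 19.4), a difference of 7.65 between the log2 ratios. With 1 library a group the difference was not tested.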

How the results depend on the processing

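With 1 library a group no replicate can be left out, and no paired analysis was possible because each group has 1 library. Named genes kept their value within tolerance in 609 of 717 recomputations, moved in 101 and reversed in 7, of which some rest on the floor of 3 UMIs. List medians kept theirs, within 0.29 on the log2 scale, in 359 of 360. The cause of these shifts was not tested. The subsets by stress gene share, the cells without much Ttr and the total without stress genes were chosen after seeing the data.

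The delta share moved to 10.4% (Cre-negative), 5.01% (control offspring) and 13.0% (IHG offspring) with mitochondrial UMIs at most 10%, to 5.63% (Cre-positive) and 3.49% (control offspring) with an Sst floor of 10%, to 5.4%, 2.75% and 8.85% (Cre-positive, control and IHG offspring) with a ceiling of 1% on other hormones, and to 3.28% in the control offspring with at least 1000 genes a cell.

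In the Cre comparison the genes higher and lower were 1086 and 2351 with the marker filter (251, 105, 286 and 430 cells left), 678 and 984 over all genes, 1110 and 694 with median-of-ratios scaling, 360 and 758 at 50 CPM, 2911 and 4333 with no filter on low levels, 315 and 403 at 2-fold, and 310 and 372 by the interval's near bound. In the offspring comparison they were 924 and 813 with the marker filter, 1484 and 1869 in cells under 5% stress gene UMIs, 161 and 711 over all genes, 842 and 696 at 10 CPM, 183 and 202 at 50 CPM, 1748 and 3804 with no filter, 71 and 118 at 2-fold, and 32 and 116 by the near bound. The share of genes past the fold that were higher was 40.8% over all genes in the Cre comparison, where the median over all genes was -0.14, and 41.8% without stress genes (461 and 641) and 44.3% in cells under 5% in the offspring comparison.

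Heat shock and immediate early genes had a median log2 ratio of -0.09 in offspring cells at 5% or more. Reversed log2 ratios were Rgs5 (0.36 without the top Scrublet scores) and Serpina1a (1.29, marker filter) in the Cre comparison. In the offspring comparison they were C1qb (-1.48, cells under 5%), H2-Ab1 (-0.38, marker filter, and -0.54, cells under 5%), H2-Eb1 (-0.88) and H2-Aa (-0.92), both in cells under 5%. The values in cells under 5% rest on the floor of 3 UMIs in the control library, so they are bounds and give no direction.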
